A study of Mus musculus with 12 samples.

Results

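The 10 genes of the Speer-like clusters of mouse chromosome 5 were followed in round spermatids of Igf2bp3+/- and Igf2bp3-/- mice. They were chosen by symbol from the 28643 symbols used of the deposited table. Of the 10 members, 5 (Gm9758, Gm17019, Gm21149, Gm21190 and Gm21083) were picked because they differed between the genotypes in these same libraries, and 5 (Speer3, Speer4a, Speer4b, Speer4d and Speer4e) were picked by name as relatives. For the first 5 the genotype values are therefore a description and carry no test. All 10 were present in the table, and all 10 passed the filter on low values in every comparison.

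SPEER proteins, the spermatogenesis associated glutamate (E)-rich proteins, form a mouse family made in the testis, mainly in haploid germ cells. Their genes and many predicted genes of the same kind lie in multicopy clusters on proximal chromosome 5. Copies made by recent duplication can be so alike that a short sequencing read fits several of them, and the value of a single copy then depends on how such reads were shared out. No function is given here for the predicted genes whose symbols start with Gm.

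Male mice were 8 weeks old, and round spermatids were sorted from their testes by flow cytometry in cycloheximide, which holds ribosomes on mRNA. The control was Igf2bp3+/-, which carries 1 copy of a Cas9-made frameshift allele (the deposited columns call it WT), and the knockout was Igf2bp3-/-, which carries 2. By the study's methods the allele was made in C57BL/6 zygotes transferred into KM females, Igf2bp3-/- males came from Igf2bp3+/- matings or from Igf2bp3-/- parents of which the sire was sub-fertile, and knockout males with impaired fertility were selected. RNA of the extract was read by RNA-seq, and mRNA with 4 or more ribosomes, taken from a sucrose gradient, by ribosome nascent-chain complex sequencing (RNC-seq). Both assays had 3 replicates per genotype, which gives 4 groups and 12 libraries, with spermatids isolated from each mouse separately.

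Values are FPKM, a read density scaled to transcript length and library size. Between 23554 and 25633 symbols were above 0 in an RNA-seq library and between 21490 and 22797 in an RNC-seq library. The file holds no counts, but low values fell on a smallest step per library, which approximates 1 fragment. For a transcript of 1 kb this step was 0.0365 to 0.0549 FPKM in 11 libraries and 0.0206 in Igf2bp3-/- RNA-seq replicate 1, the deepest. The lowest member value of any library came to 37.8 steps. Igf2bp3 itself stood at 38.2, 38.6 and 33.4 FPKM in Igf2bp3+/- RNA-seq and at 31.7, 32.5 and 31.4 in Igf2bp3-/- RNA-seq. The RNC-seq values were 40.1, 31.4 and 43.0 FPKM in Igf2bp3+/- and 43.1, 40.6 and 43.1 in Igf2bp3-/-. A frameshift need not remove the transcript, so these levels do not check the genotype labels. All 10 round spermatid markers were detected, with sums of 3950 to 5584 FPKM in Igf2bp3+/- and 4389 to 4974 in Igf2bp3-/- RNA-seq.

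On GRCm38 (GENCODE M21) the 10 members fell into a proximal and a more distal part of the family on chromosome 5, and all were annotated as protein coding. Speer3 lay first, at chr5:13791619-13796820 on the plus strand. Gm9758 (chr5:14910122-14914899), Speer4e (chr5:14933221-14938429) and Gm17019 (chr5:15028950-15032998) followed on the minus strand. Before Gm9758 was a gap of 1096 kb without a Speer-like gene of the table. After a gap of 439 kb without another Speer-like gene of the table came Gm21149 (chr5:15471703-15476523) and Gm21190 (chr5:15524456-15529222) on the minus strand, then Gm21083 (chr5:15577333-15582078) and Speer4d (chr5:15619064-15623864) on the plus strand. Speer4a (chr5:26032846-26039558) and Speer4b (chr5:27495639-27501438) lay apart from these, on the minus strand.

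The sequence before the start of each gene shows how alike the members are and where they differ. The stretches below are RefSeq sequence of GRCm38.p6, read 5′ to 3′ on the strand of the gene and ending 8 to 77 bases before the start that RefSeq gives, which can differ from the GENCODE start. Capitals mark TGACATCA, an 8-base motif that differs by 1 letter from the cyclic AMP response element TGACGTCA. They are shown because Gm9758, which was lower in Igf2bp3-/-, and Gm21149, which was higher, share the same 103 bases. The single change G24T, counted from 1 at the 5′ end of the Gm9758 stretch, was found in Gm21190, Gm21083 and Speer4d, and in no other member with a stretch of that length. Speer4e differed from Gm9758 by G93A, Gm17019 by G94C and G98A, and Speer4b by G13A, C66T and C72T. The stretch of Speer4a was 102 bases long and that of Speer3, the most distant member, 75.
Gm9758 (chr5:14914911-14915013) and Gm21149 (chr5:15476545-15476647): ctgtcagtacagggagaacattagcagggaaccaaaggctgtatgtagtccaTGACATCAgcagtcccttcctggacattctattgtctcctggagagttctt
Gm17019 (chr5:15033020-15033122): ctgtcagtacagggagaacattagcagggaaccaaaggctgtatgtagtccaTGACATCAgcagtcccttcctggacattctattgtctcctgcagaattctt
Gm21083 (chr5:15577153-15577255), the same in Gm21190 (chr5:15529300-15529402) and Speer4d (chr5:15618949-15619051): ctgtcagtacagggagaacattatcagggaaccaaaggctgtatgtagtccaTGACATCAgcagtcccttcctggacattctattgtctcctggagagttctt
Speer4e (chr5:14938488-14938590): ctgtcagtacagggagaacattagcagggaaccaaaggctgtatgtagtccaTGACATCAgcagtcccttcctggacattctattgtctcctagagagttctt
Speer4b (chr5:27501449-27501551): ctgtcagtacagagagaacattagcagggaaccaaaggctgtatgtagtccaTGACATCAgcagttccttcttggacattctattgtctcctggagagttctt
Speer4a (chr5:26039565-26039666): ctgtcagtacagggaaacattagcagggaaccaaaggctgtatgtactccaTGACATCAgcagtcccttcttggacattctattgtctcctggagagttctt
Speer3 (chr5:13791503-13791577): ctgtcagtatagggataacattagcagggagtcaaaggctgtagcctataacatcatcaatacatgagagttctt

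In windows of 300 bases (250 before to 50 after the start), searched on both strands (TGACATCA or TGATGTCA), all 10 members held the motif at least once and 8 held 2 or more. Speer3 and Speer4b held it once. Of all 32851 promoter windows 3.62% held it at least once and 0.228% at least 2 times. Of the 68 genes with a window of that last kind, 21 were members, other Speer symbols or their near-identical copies. TGACGTCA was in 1.79% of all windows and in 0 of the 10 members. The motif was chosen after these sequences were seen, the copies share their descent, and a match is a description of letters only.

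The longest transcripts were aligned with BLAST, and the aligned share of a transcript differed widely. That of Gm9758 (1167 bases) was 97.9% identical to Gm17019 (1162 bases) over 99.6% of its length, 98.0% to Speer4e (1603 bases) over 82.6% and 97.9% to Gm21149 (1212 bases) over 85.8%. Gm21083 (1141 bases) was 98.3% identical to Gm21149 and 96.0% to Gm21190 (1167 bases), in alignments that with their gaps came to 101% and 102% of its length. With Speer4d (1194 bases) it was 98.6% identical over 64.2% of its length. The longest transcript of Speer4a (2980 bases) was 95.3% identical to Speer4b (2193 bases) over 73.8% of its length. Gm9758 was 90.6% identical to Speer4a over 87.9% and 90.9% to Speer4b over 53.5% of its length. No alignment of Speer3 (1192 bases) with another member reached 50% of either transcript, and shorter alignments were not kept.

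What a read could tell apart was measured as the share of windows of the longest transcript that occur in no other annotated gene. For windows of 50 bases this share was 9.37% in Gm21149, 20.2% in Gm21083, 23.7% in Gm21190, 30.8% in Gm17019 and 36.9% in Gm9758. It was 30.9% in Speer4d, 41.8% in Speer4e, 51.0% in Speer4a, 61.2% in Speer4b and 84.7% in Speer3. For windows of 150 bases it ranged from 52.6% in Gm21149 to 100% in Speer4b and Speer3. The deposited values thus rest on unlike shares of separable sequence, lowest in Gm21149 and highest in Speer3. How reads that fit several copies were handled is not given in the sources used here, and its part in the values below was not tested.

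**Figure D1:**
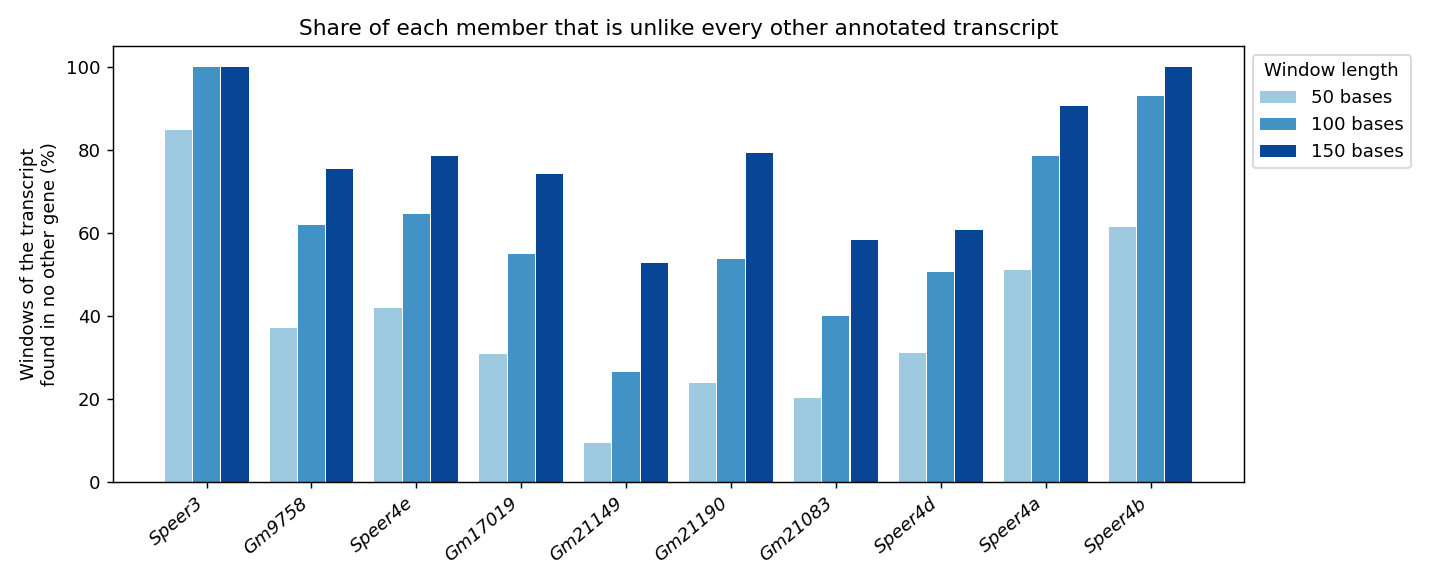
Share of windows of the longest transcript (y axis, %) found in no other annotated gene, for windows of 50, 100 and 150 bases, with the 10 members on the x axis in chromosome order. Gm21149 had the lowest bars at every length and Speer3 the highest, at 100% for 100 and 150 bases.

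Both genes picked as lower lie before the 439-kb gap. Gm9758 stood at 10.8, 10.0 and 7.91 FPKM in Igf2bp3+/- RNA-seq and at 2.55, 1.94 and 3.67 in Igf2bp3-/- RNA-seq. Among polysomal mRNA (RNC-seq) it had 8.58, 5.52 and 8.09 FPKM in Igf2bp3+/- and 1.89, 1.36 and 1.50 in Igf2bp3-/-. Every Igf2bp3-/- library was below every Igf2bp3+/- library in both assays. The log2 difference, Igf2bp3-/- minus Igf2bp3+/- of log2(FPKM + 0.1), was −1.81 (SE 0.22) in RNA-seq and −2.14 (SE 0.27) in RNC-seq, a mean FPKM of 0.284 and 0.214 of the control.

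Gm17019 was the most abundant of the 5 picked genes in the control. It stood at 16.1, 12.2 and 11.5 FPKM in Igf2bp3+/- RNA-seq and at 3.34, 3.51 and 4.01 in Igf2bp3-/-. In RNC-seq it stood at 9.40, 7.01 and 8.99 FPKM in Igf2bp3+/- and at 2.45, 2.12 and 2.27 in Igf2bp3-/-. The groups did not overlap in either assay, and the spread among the Igf2bp3-/- libraries was small beside the gap. Its log2 difference was −1.83 (SE 0.15) in RNA-seq and −1.84 (SE 0.23) in RNC-seq, the same size in both assays within these errors.

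The 3 genes picked as higher lie together after the gap. Gm21149 stood at 5.04, 4.13 and 2.90 FPKM in Igf2bp3+/- RNA-seq and at 10.5, 8.82 and 12.8 in Igf2bp3-/-. The RNC-seq values were 4.14, 1.66 and 3.29 FPKM in Igf2bp3+/- and 6.53, 5.26 and 9.49 in Igf2bp3-/-. Its groups were apart in both assays, although its RNC-seq values varied widely within a genotype. The log2 difference was 1.41 (SE 0.21) in RNA-seq and 1.25 (SE 0.34) in RNC-seq.

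Gm21190 was higher than Gm21149 in every library. It stood at 9.65, 7.67 and 6.02 FPKM in Igf2bp3+/- RNA-seq and at 19.6, 16.0 and 21.9 in Igf2bp3-/-. Among polysomal mRNA (RNC-seq) it had 5.42, 3.29 and 6.16 FPKM in Igf2bp3+/- and 13.0, 10.0 and 12.9 in Igf2bp3-/-. Here too the groups did not overlap, with a log2 difference of 1.30 (SE 0.18) in RNA-seq and 1.29 (SE 0.27) in RNC-seq.

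Gm21083 had the largest difference among the members that were higher. It stood at 6.34, 6.76 and 5.35 FPKM in Igf2bp3+/- RNA-seq and at 21.6, 21.1 and 25.0 in Igf2bp3-/-. In RNC-seq it stood at 6.33, 3.84 and 6.44 FPKM in Igf2bp3+/- and at 18.6, 13.7 and 21.6 in Igf2bp3-/-. From a level near the middle of the members in the control it became the highest member in the knockout, at 3.67 times the control mean in RNA-seq and 3.25 times in RNC-seq. The log2 difference was 1.86 (SE 0.12) in RNA-seq and 1.70 (SE 0.27) in RNC-seq.

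Among the relatives picked by name, Speer3 and Speer4d had the largest differences. Speer3, the first gene of the row, stood at 6.53, 6.47 and 5.18 FPKM in Igf2bp3+/- RNA-seq and at 2.77, 2.13 and 3.84 in Igf2bp3-/-. The RNC-seq values were 6.41, 3.45 and 5.38 FPKM in Igf2bp3+/- and 2.63, 2.11 and 2.83 in Igf2bp3-/-. Its groups did not overlap in either assay, but the difference did not pass the test over all genes. The log2 difference was −1.06 in RNA-seq (SE 0.21, limma adjusted p = 0.124) and −0.95 in RNC-seq (SE 0.28, limma adjusted p = 0.632).

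Speer4d lies next to Gm21083. It stood at 3.36, 2.92 and 2.46 FPKM in Igf2bp3+/- RNA-seq and at 6.43, 4.12 and 6.30 in Igf2bp3-/-. Among polysomal mRNA (RNC-seq) it had 3.29, 1.46 and 2.23 FPKM in Igf2bp3+/- and 3.12, 3.59 and 3.98 in Igf2bp3-/-. The groups were apart in RNA-seq and overlapped in RNC-seq. Neither log2 difference passed the test, at 0.91 in RNA-seq (SE 0.20, limma adjusted p = 0.152) and 0.66 in RNC-seq (SE 0.30, limma adjusted p = 0.767).

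Speer4e, to which 82.6% of the Gm9758 transcript aligned at 98.0% identity, lies between Gm9758 and Gm17019. It stood at 9.09, 8.21 and 6.41 FPKM in Igf2bp3+/- RNA-seq and at 6.96, 6.14 and 8.37 in Igf2bp3-/-. In RNC-seq it stood at 6.17, 4.92 and 5.01 FPKM in Igf2bp3+/- and at 3.54, 4.79 and 6.84 in Igf2bp3-/-. Its groups overlapped in both assays, with no difference past the test. The log2 difference was −0.14 in RNA-seq (95% interval −0.52 to 0.24, limma adjusted p = 0.722) and −0.13 in RNC-seq (95% interval −0.72 to 0.47, limma adjusted p = 0.949). Gm9758 and Gm17019 on either side of it were picked for their difference, so the contrast with Speer4e carries no test.

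Speer4a and Speer4b are the 2 members of the distal part. Speer4a stood at 4.02, 3.90 and 3.79 FPKM in Igf2bp3+/- RNA-seq and at 3.36, 2.96 and 3.25 in Igf2bp3-/-. The RNC-seq values were 2.31, 1.33 and 2.90 FPKM in Igf2bp3+/- and 1.48, 2.62 and 2.04 in Igf2bp3-/-. The RNA-seq groups were apart by a small margin and the RNC-seq groups overlapped. The log2 difference was −0.28 in RNA-seq (SE 0.12, limma adjusted p = 0.314) and −0.06 in RNC-seq (SE 0.33, limma adjusted p = 0.985).

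Speer4b had the highest mean of all members in the control. It stood at 16.0, 16.3 and 14.7 FPKM in Igf2bp3+/- RNA-seq and at 14.1, 12.4 and 14.9 in Igf2bp3-/-. Among polysomal mRNA (RNC-seq) it had 9.78, 6.90 and 11.6 FPKM in Igf2bp3+/- and 7.31, 12.1 and 9.57 in Igf2bp3-/-. Both pairs of groups overlapped, with a log2 difference of −0.19 in RNA-seq (95% interval −0.44 to 0.05, limma adjusted p = 0.426) and 0.04 in RNC-seq (95% interval −0.55 to 0.62, limma adjusted p = 0.989).

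**Figure D2:**
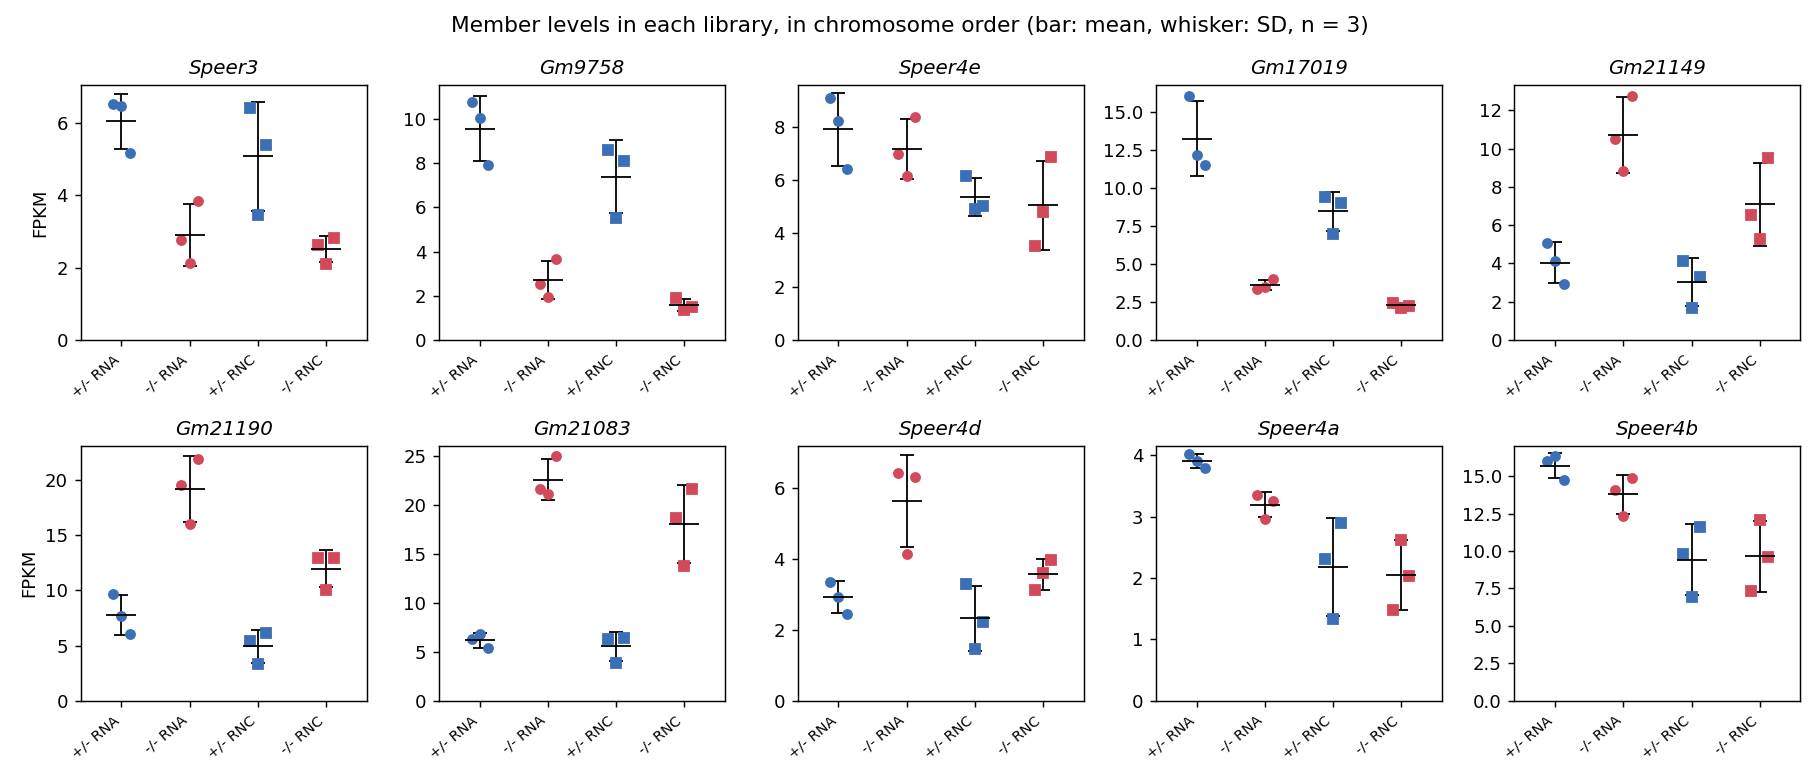
FPKM of each member (y axis, from 0, a scale for each gene) in the 3 replicates of Igf2bp3+/- (blue) and Igf2bp3-/- (red), for RNA-seq (circles) and RNC-seq (squares), with the mean as a bar and the SD as a whisker. Speer3, Gm9758 and Gm17019 were lower and Gm21149, Gm21190 and Gm21083 higher in every Igf2bp3-/- library of both assays, while Speer4e and Speer4b overlapped.

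By limma over all genes, 3 members were called higher and 2 lower in Igf2bp3-/- RNA-seq, all of them genes picked for this difference. Of the 20352 genes tested 0.197% were called higher and 0.059% lower, and nothing is read from the members' count. Without 1 library at a time the count was 3 (without Igf2bp3+/- replicate 1 or 3, or Igf2bp3-/- replicate 3) or 2 (without Igf2bp3+/- replicate 2, or Igf2bp3-/- replicate 1 or 2). In RNC-seq 1 member (Gm21083) was called higher and 2 (Gm9758 and Gm17019) lower, against 0.0787% and 0.0367% of 19051 genes. That count was 0 without Igf2bp3+/- RNC-seq replicate 3, Igf2bp3-/- replicate 1 or Igf2bp3-/- replicate 3, fits in which 9, 0 and 10 genes were called in all. None of the 5 Speer members was called in either assay. Groups that did not overlap were found in RNA-seq for 4 members that were higher and 4 that were lower, where 14.1% and 8.68% of all genes tested had such groups. In RNC-seq there were 3 and 3, against 9.44% and 1.85%. As 5 of these members were picked for the difference, nothing is read from these counts. Among the 5 picked by name, Speer3 and Speer4a (lower) and Speer4d (higher) had such groups in RNA-seq, and Speer3 (lower) in RNC-seq. The median log2 difference of all genes was 0.05 in RNA-seq and 0.13 in RNC-seq.

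The genes were also set in their order along the chromosome. With 5 other Speer symbols and 12 near-identical copies (genes at 95% identity or more over at least 50% of a member's transcript), 27 such genes of chromosome 5 were in the table. From Speer3 to Gm17019, 6 of 6 genes had a negative log2 difference in RNA-seq, from −1.83 to −0.09, and in 4 of them the groups did not overlap. From Gm21149 to Speer4c, 7 of 7 had a positive one, from 0.06 to 1.86, and in 5 of them the groups did not overlap. Of all genes tested in RNA-seq, 8.68% were lower and 14.1% higher without overlap, and both counts here include genes picked for the difference. These runs were drawn after the values were seen, so they are a description. The first spans 1241 kb and holds the 1096-kb gap before Gm9758. Speer1, before the first run, was higher (0.49, SE 0.14). Speer4f2 and Speer4f1, after the second run, were lower (−0.47, SE 0.16, and −0.27, SE 0.23). The groups of Speer1 and Speer4f2 did not overlap. The 5 members picked for the difference lie within the runs, and no other gene of the runs passed the limma test. Gm6650 (−0.09, SE 0.18) and Speer4e in the first run were near 0. So was Speer4cos in the second (0.06, SE 0.33), an antisense RNA that overlaps Speer4c on the opposite strand and stood at 0.188 FPKM in Igf2bp3+/- and 0.212 in Igf2bp3-/- RNA-seq.

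Genes that no rule picked for a difference also lie in these runs, but they are not independent of the picked genes. Gm10354 and 4930572O03Rik entered as near-identical copies of members, and the part of shared reads in their values was not tested. Gm10354, a protein-coding copy between Speer4e and Gm17019, had 14.3 ± 2.79 FPKM in Igf2bp3+/- and 7.34 ± 0.855 in Igf2bp3-/- RNA-seq (SD, n = 3) without overlap, but its log2 difference of −0.94 did not pass the test (SE 0.16, limma adjusted p = 0.084). In RNC-seq its log2 difference was also −0.94 (SE 0.28, limma adjusted p = 0.632). On the other side of the gap, 4930572O03Rik, the copy after Speer4d, had 2.88 ± 0.727 FPKM in Igf2bp3+/- and 5.15 ± 1.19 in Igf2bp3-/- RNA-seq (SD, n = 3). Its log2 difference was 0.82 in RNA-seq (SE 0.23, limma adjusted p = 0.191) and 0.25 in RNC-seq (SE 0.27, limma adjusted p = 0.886). Outside the 5 picked genes, the values furthest from 0 in these runs in RNA-seq were those of Speer3 and Gm10354 on the lower side and of Speer4d and 4930572O03Rik on the higher side.

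In the distal part the 11 genes from Gm21663 to Speer4b ranged from −0.62 to −0.16 in RNA-seq and from −0.19 to 0.20 in RNC-seq. None of the 12 copies and none of the 9 other Speer symbols passed the limma test in either assay. Their log2 differences in RNA-seq ran from −0.94 to 0.82 in the copies (11 negative, 1 positive, median −0.33) and from −0.49 to 0.53 in the other Speer symbols (3 negative, 6 positive, median 0.06).

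**Figure D3:**
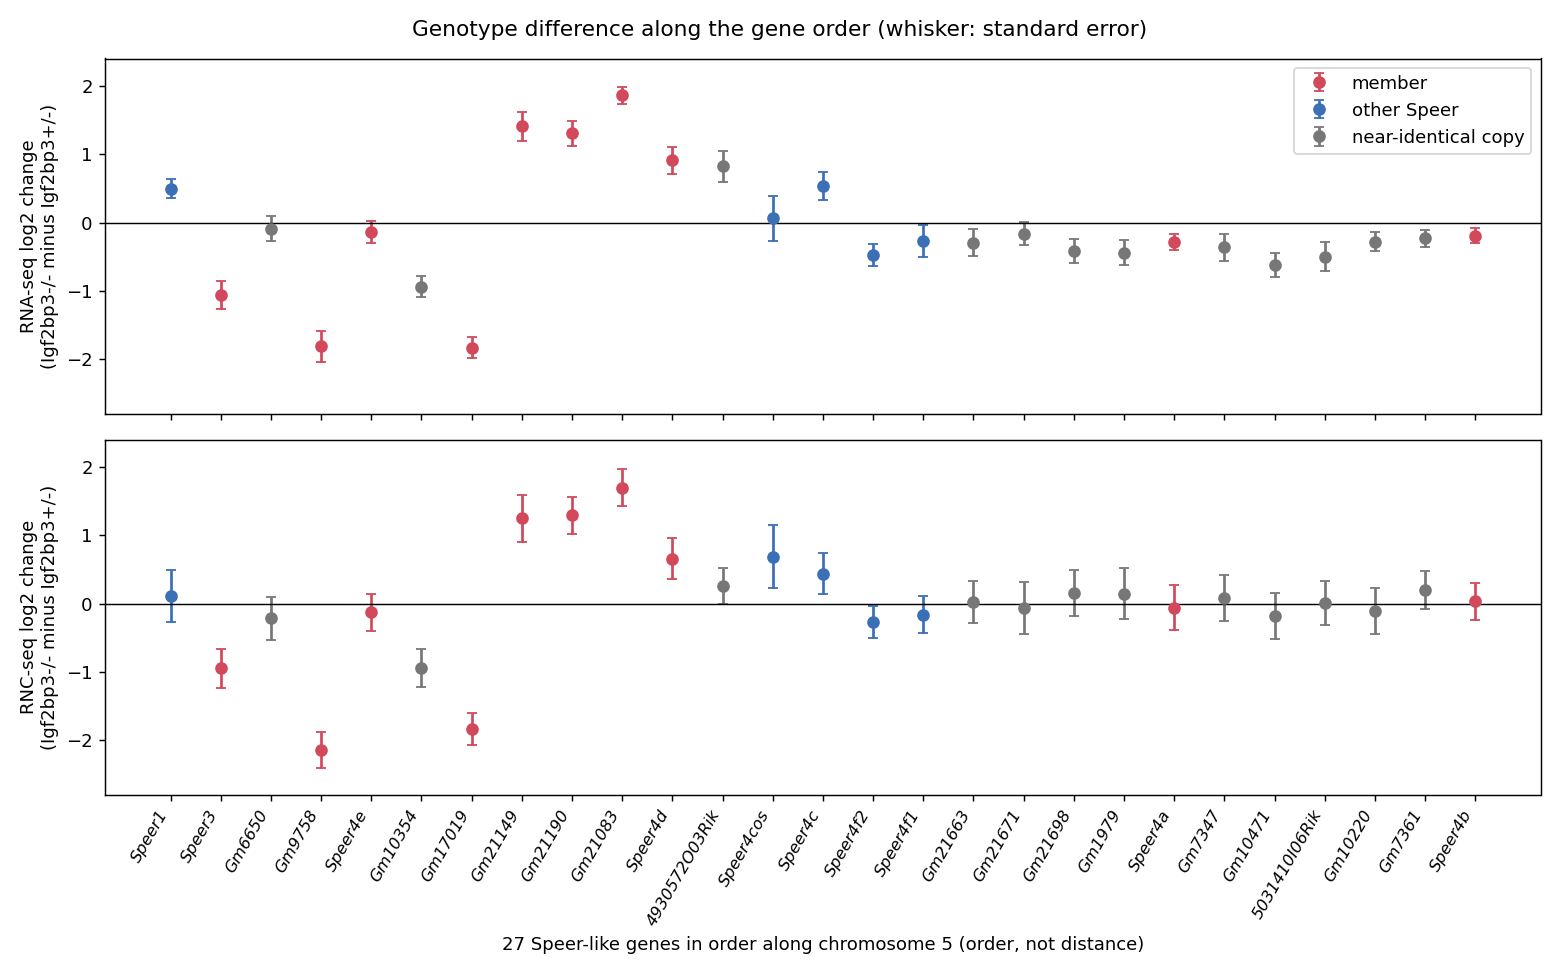
Log2 difference (Igf2bp3-/- minus Igf2bp3+/-, y axis) of 27 Speer-like genes in their order along chromosome 5 (x axis, order only), in RNA-seq (top) and RNC-seq (bottom), with the standard error as a whisker. In RNA-seq the genes from Speer3 to Gm17019 lie between −1.83 and −0.09, those from Gm21149 to Speer4c between 0.06 and 1.86, and the distal 11 between −0.62 and −0.16.

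Genes that flank the members and are neither Speer symbols nor near-identical copies were read as well. Lesser likeness to the members was not checked. Of the 9 nearest tested genes on either side, 0 passed the limma test in either assay. Sema3e, which encodes a guidance molecule of the semaphorin family and lies between Speer3 and Gm9758, had a log2 difference of −0.04 in RNA-seq. 4930519H02Rik, after Speer4d, had −0.08, at 38.8 FPKM in Igf2bp3+/- and 36.3 in Igf2bp3-/-. The highest value in RNA-seq was 1.34 (limma adjusted p = 0.148) in Gm30613, a gene at 0.106 FPKM in Igf2bp3+/- that overlaps 11.1% of the exonic bases of Gm21083 on the opposite strand. Gm43391 overlaps 29.6% of those of Gm21149 and Gm21847 23.1% of those of Gm21190, also on the opposite strand. In RNA-seq Gm43391 had 0.74, at 0.460 FPKM in Igf2bp3+/- and 0.787 in Igf2bp3-/-, and Gm21847 had 0.35. The RNA-seq groups of Gm30613 and Gm43391 did not overlap. Gm43391 had 0.83 in RNC-seq and Gm30613 0.87, the latter without overlap. Of the 9 flanking genes, 4 were higher and 5 lower in RNA-seq, and 6 higher and 3 lower in RNC-seq. In RNC-seq Gm21847 had the highest value, 1.64 (limma adjusted p = 0.632), at 0.0658 FPKM in Igf2bp3+/- and 0.369 in Igf2bp3-/- without overlap. Whether strand was used in counting is not given in the sources used here, so reads of these pairs cannot be told apart.

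Because reads of copies can be shared among them, the summed level was set beside the single genes. Over the 10 members it was 86.9, 78.6 and 66.3 FPKM in Igf2bp3+/- RNA-seq and 91.2, 79.0 and 104 in Igf2bp3-/-. In RNC-seq it was 61.8, 39.4 and 60.1 FPKM in Igf2bp3+/- and 60.5, 57.7 and 73.0 in Igf2bp3-/-. The sums overlapped between the genotypes in both assays, with ratios of means of 1.18 and 1.19. Over all 27 Speer-like genes of the chromosome the RNA-seq sum was 174 ± 27.9 FPKM in Igf2bp3+/- and 175 ± 21.1 in Igf2bp3-/- (SD, n = 3). In RNC-seq it was 113 ± 23.8 and 121 ± 13.1 FPKM.

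Within a sum of similar size, the make-up differed. Gm9758 and Gm17019 together went from 22.8 ± 3.75 FPKM to 6.34 ± 1.18 in RNA-seq, while Gm21149, Gm21190 and Gm21083 together went from 18.0 ± 3.43 to 52.4 ± 6.93 (SD, n = 3). Gm21083 made up 7.99% ± 0.655 of the member sum in Igf2bp3+/- and 24.8% ± 1.63 in Igf2bp3-/- RNA-seq, and Gm17019 17.1% ± 1.55 and 3.99% ± 0.402. Speer4a, Speer4b and Speer4e together had 27.5 ± 2.25 FPKM in Igf2bp3+/- and 24.1 ± 2.54 in Igf2bp3-/-. These values follow from the choice of members and carry no test. The fall of the lower pair was 16.5 FPKM and the gain of the higher trio 34.4.

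**Figure D4:**
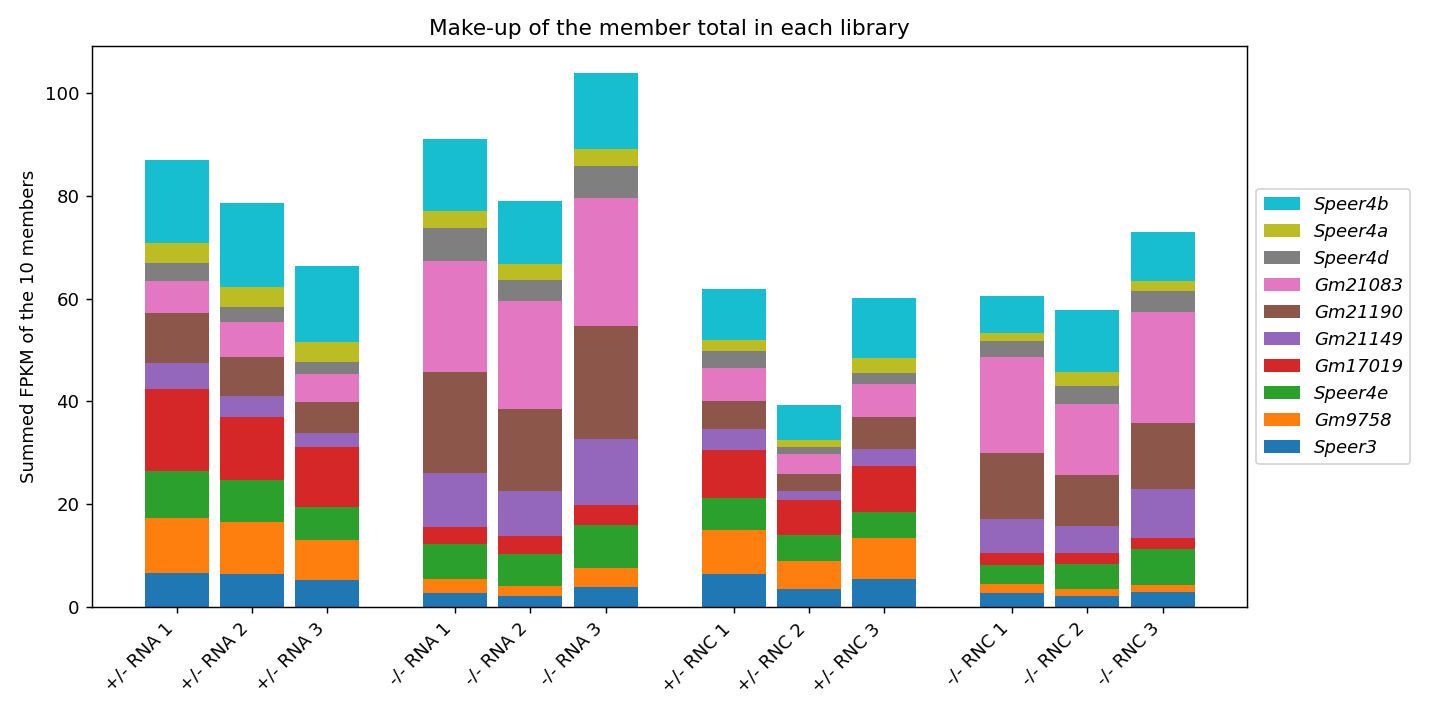
Summed FPKM of the 10 members (y axis) in each of the 12 libraries (x axis), stacked by member in chromosome order. The totals of the genotypes overlap in both assays, and the segments of Gm21149, Gm21190 and Gm21083 are larger and those of Gm9758 and Gm17019 smaller in Igf2bp3-/-.

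Pearson r of log2(FPKM + 0.1) over the 12 libraries was read for pairs of members. The value was 0.98 for Gm9758 and Gm17019, 0.95 for Gm9758 and Speer3, 0.97 for Gm21149 and Gm21190, and 0.95 for Gm21149 and Speer4d. Speer4e had 0.40 with Gm9758, 0.44 with Gm17019 and 0.47 with Speer3, which lie on its side of the gap. Across the gap it was −0.82 for Gm17019 and Gm21083. Speer4a and Speer4b, both distal, had 0.99. These are descriptions, since the libraries fall into 4 groups, most of these genes were picked for the genotype difference that sets r, and the genes share sequence and depth.

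RNC-seq was set against RNA-seq within each genotype, a comparison that was not itself used to choose members. The Gm members were picked for a genotype difference in these same libraries, however. Their values and calls here are therefore not independent of that choice and are a description. In Igf2bp3+/- 10 of 10 members had a lower level in RNC-seq, with log2 differences from −0.88 (Speer4a) to −0.18 (Gm21083). The limma test called 4 members lower and 0 higher, where 26.3% of 19798 genes were lower and 17.3% higher, with a median of −0.14. Those 4 were Gm17019 (−0.64, SE 0.18, adjusted p = 0.0216), Speer4a (−0.88, SE 0.27, adjusted p = 0.0281), Speer4b (−0.76, SE 0.19, adjusted p = 0.0132) and Speer4e (−0.54, SE 0.18, adjusted p = 0.0388). Among them Gm17019 was picked for the genotype difference and the Speer genes by name. Without replicate 1 or replicate 2 the count was 0 and without replicate 3 it was 2. Without replicate 2 the values of Gm21083 and Speer3 were positive, at 0.13 and 0.02.

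In Igf2bp3-/- 10 of 10 members were again lower in RNC-seq, from −0.71 (Gm9758) to −0.17 (Speer3). The limma test called 2 of them lower and 0 higher, where 11% of 19858 genes were lower and 9.48% higher, with a median of −0.06. Those 2 were Gm17019 (−0.64, SE 0.19, adjusted p = 0.0421) and Gm21190 (−0.67, SE 0.19, adjusted p = 0.0358). Both were picked for the genotype difference in these libraries, so their calls are a description. Without replicate 1 or replicate 3 the count was 0, in fits that called 4 and 6 genes in all. With the replicate number as a block it was 1, Gm21190, and Gm17019 did not pass (limma adjusted p = 0.0657). From 22.0% to 48.3% of all genes lay below a member in Igf2bp3+/- and from 17.5% to 43.4% in Igf2bp3-/-. The lower level was not particular to the members. Of the 12 near-identical copies, 11 were lower in Igf2bp3+/- (median −1.13, 9 called lower). In Igf2bp3-/- 12 of 12 copies were lower (median −0.65, 4 called lower). The medians of the members were −0.50 and −0.62. Of the 9 other Speer symbols, 6 were lower in Igf2bp3+/- and 7 in Igf2bp3-/-.

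Translational efficiency (TE), the RNC-seq FPKM over the RNA-seq FPKM of the same replicate number, was compared between the genotypes. Gm17019 had a TE of 0.584, 0.576 and 0.780 in Igf2bp3+/- and of 0.732, 0.606 and 0.565 in Igf2bp3-/-. Gm21083 had 0.998, 0.568 and 1.20 in Igf2bp3+/- and 0.863, 0.652 and 0.866 in Igf2bp3-/-. Speer4b had 0.610, 0.422 and 0.786 in Igf2bp3+/- and 0.519, 0.978 and 0.642 in Igf2bp3-/-. The genotypes overlapped in TE for each of these 3 genes. Replicate 2 of Igf2bp3+/- had the lowest control TE in 10 of 10 members and also the lowest median of all genes tested, 0.817 beside 0.931 and 1.00.

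The interaction of genotype and assay ran from −0.33 in Gm9758 (SE 0.35) to 0.23 in Speer4a (SE 0.37, limma adjusted p = 0.88). No member was called for TE, where 0.00543% of 18414 genes were, and 0 of the 10 had an unadjusted p under 0.05. For the Speer members the adjusted p by limma was 0.85 to 0.992. The 95% interval was −1.08 to 0.42 for Gm9758 and −0.57 to 1.02 for Speer4a.

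**Figure D5:**
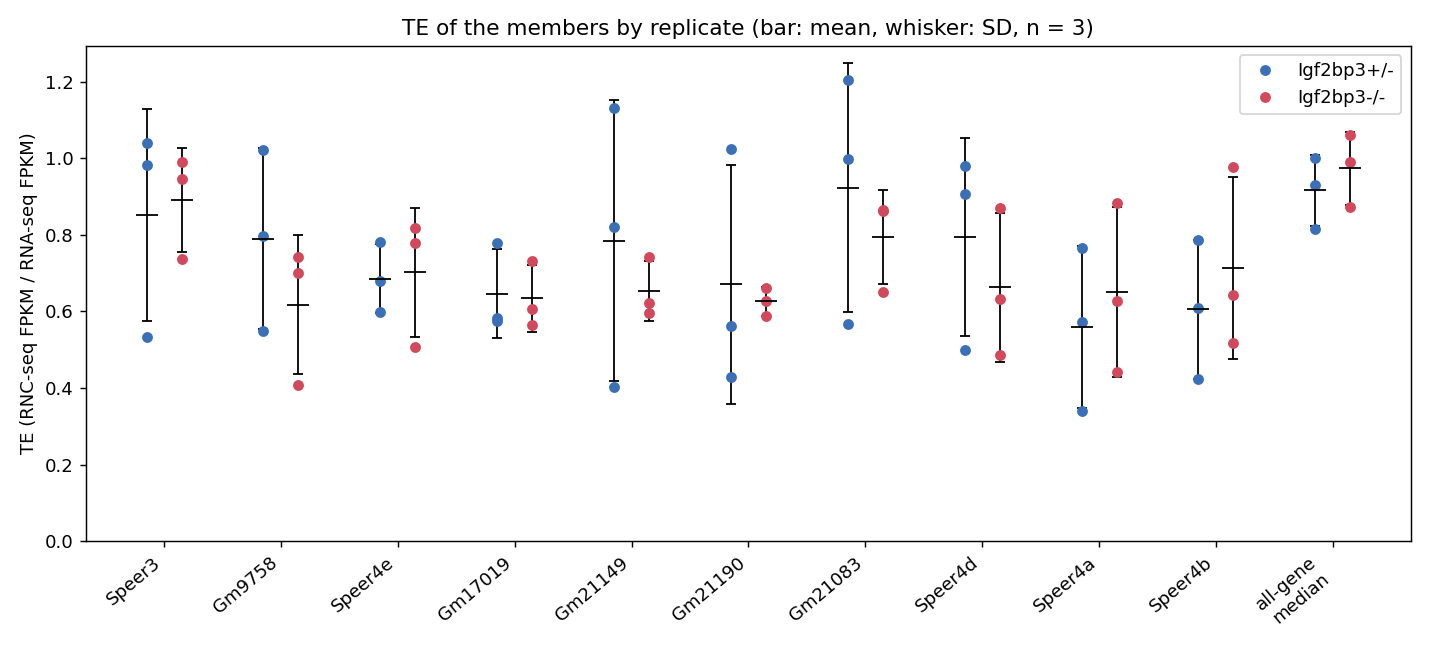
TE (RNC-seq FPKM over RNA-seq FPKM, y axis from 0) of each member and the median of all genes tested, by replicate, in Igf2bp3+/- (blue) and Igf2bp3-/- (red), with the mean as a bar and the SD as a whisker. The genotypes overlap in every member, and the all-gene median is 0.916 ± 0.0929 in Igf2bp3+/- and 0.974 ± 0.0951 in Igf2bp3-/-.

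Some levels outside the family moved with the genotype as well. The 6 Leydig cell markers summed to 14.6 to 21.5 FPKM in Igf2bp3+/- RNA-seq and to 46.3 to 52.8 in Igf2bp3-/-, with 6 of 6 higher. In RNC-seq they summed to 6.16 to 13.9 and to 50.4 to 100 FPKM. The 6 macrophage markers (6 of 6 higher) summed to 2.24 to 2.44 and 4.88 to 5.37 FPKM in RNA-seq, and the 5 Sertoli cell markers in the table (4 of 5 higher, 1 under 0.1 FPKM in every group) to 3.31 to 4.05 and 6.90 to 7.65. Spermatogonia and spermatocyte markers overlapped between the genotypes in RNA-seq. The part of these cells in the members' values was not tested, and in bulk samples more cells of a type and more RNA per cell cannot be told apart. A list of other multicopy spermatid genes was read for comparison, of which 14 of 16 were in the table. In each assay 11 were tested, and 0 were called in RNA-seq (−0.80 to 0.49) or in RNC-seq (−1.68 to 0.29). Sly was too low to be tested, at 0.026 FPKM in Igf2bp3+/- RNA-seq. Some of those tested were also low, such as Ssty1 at 0.199 FPKM and Gm3500 at 0.311 in that group.

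The genes outside the Speer names whose levels were most like the summed FPKM of the 5 picked members, by Pearson r over the 12 libraries among 12247 genes, were Taf7l (0.965), 4930572O03Rik (0.931), Prr3 (0.924), Dcn (0.914) and Katna1 (0.910). Taf7l encodes a germ cell paralog of a TFIID subunit, Dcn the matrix proteoglycan decorin and Katna1 the catalytic subunit of katanin, which severs microtubules. For the sum of the 3 higher members alone, a target added after the values were seen, the first was Hsd3b1 (0.944), a steroidogenic enzyme of the Leydig list. For the sum of Gm9758 and Gm17019 the first was Lhfpl3 (0.962), and the copy Gm10354 was among the next (0.907). These r values rest on libraries of 4 groups and are a description.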

How the data were processed

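RNA-seq and RNC-seq of sorted round spermatids were analysed from 1 deposited table of FPKM for 12 libraries. By the methods and the submitters' processing notes, the authors trimmed reads with Trim Galore 0.6.6, aligned them to GRCm38 (mm10) with Hisat2 2.1.0 and computed the FPKM with StringTie 2.1.7. The annotation release, strand setting and treatment of reads with several matches are not given in the sources used here. The labels name a directional poly(A) kit, the methods a full-length method on another instrument. The authors' own tests were not used here. Of 28668 symbols, 25 that had become dates (0.0995% of FPKM) were left out. Genes with a mean FPKM above 0.1 were tested as log2(FPKM + 0.1) with limma 3.58.1 (trend, two-sided, Benjamini-Hochberg, limit 0.05) in R 4.3.3, within an assay, within a genotype, or as the interaction for TE. This scale understates changes of low genes. The script was tested on simulated data. Positions and transcripts were from GENCODE M21, alignments from BLAST 2.17.0, promoters from RefSeq. Named genes were the members, other Speer symbols, copies at 95% identity or more, the nearest flanking genes, Igf2bp3, the 5 genes most alike in level and fixed marker lists. Members and lists were chosen with earlier results of these data known. Alternatives changed the pseudocount, filter, scaling, block, libraries in the fit and replicates.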

Additional observations from a re-analysis of the deposited data

How the results depend on the processing

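Both members that were lower (Gm9758, Gm17019) and the 3 that were higher (Gm21149, Gm21190, Gm21083) kept their direction in RNA-seq and RNC-seq under every alternative run. These 5 genes were picked for this difference in the same libraries. Their kept direction and their genotype calls are therefore a description and carry no test. The number of members called moved, and the cause was not tested. In RNA-seq it was 5, but 3 without a filter on low FPKM, 3 in the fit over all 12 libraries, and 2 to 3 without 1 replicate. In RNC-seq it was 3, but 0 without a filter, and 0 to 3 without 1 replicate. It was 2 there with median centring and with quantile normalization, where Gm21083 was no longer called. In the fit over all 12 libraries it was 4, with Gm21190 added. In RNC-seq against RNA-seq it was 4 in Igf2bp3+/- (0 to 2 without 1 replicate) and 2 in Igf2bp3-/- (1 without a filter, 0 to 3 without 1 replicate). For TE it was 0 under every alternative. With the replicate block 1 member was called in RNA-seq, 3 in RNC-seq, 4 in RNC-seq against RNA-seq in Igf2bp3+/- and 1 in Igf2bp3-/-. By the methods both assays used parts of 1 extract per mouse, but no source says that equal numbers mark the same extract. The numbers were not shown to pair the samples: deviations of same-numbered libraries had r of −0.10 to 0.21 between the assays and −0.08 to 0.24 between the genotypes.

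Small differences changed sign. Speer4b in RNC-seq was −0.083 when libraries were centred on their medians, −0.084 after quantile normalization and −0.17 to 0.22 without 1 replicate. Without 1 replicate, RNC-seq differences ran from −0.36 to 0.18 for Speer4a and from −0.37 to 0.10 for Speer4e, the TE difference of Speer4a from −0.075 to 0.48, and RNC-seq against RNA-seq in Igf2bp3+/- from −0.40 to 0.13 for Gm21083 and from −0.46 to 0.015 for Speer3. Gm10354 in RNA-seq passed the limit with a mean FPKM above 1 (limma adjusted p = 0.0415), with centring (0.0239) and after quantile normalization (0.0291). The ratio of the summed level stayed at 1.10 to 1.26 in RNA-seq and 1.05 to 1.28 in RNC-seq. Depth is known only as steps of the FPKM values, and 3 replicates limit what a test can find.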
